A study of Homo sapiens with 6 samples.

Results

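The genes described here belong to the ATF4-CHOP arm of the integrated stress response, and they were chosen by name as 8 array probes, 1 for each of ATF4, DDIT3 (which encodes CHOP), TRIB3, PPP1R15A, ASNS, PSAT1, SESN2 and GDF15. All 8 probes were among the 47231 on the array, and the array annotation gave each the gene it was chosen for. The samples were HeyA8 cells, an established human ovarian cancer cell line, described in the labels as parental. One group of 3 samples had been treated with magnetic fluid hyperthermia (MFH), in which magnetic nanoparticles are heated by an alternating magnetic field, and the other group of 3 was untreated. The labels give no temperature, duration or time of harvest, and no arrays of nanoparticles or field alone were analysed here, and the comparison is therefore of the whole procedure with no procedure. Nothing in the labels tells whether the replicates were separate cultures, and the p-values then carry only the variation among these 6 samples, in part or wholly technical.

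In the integrated stress response, kinases that sense different stresses phosphorylate the translation factor eIF2alpha. General protein synthesis is then reduced, while the mRNA of the transcription factor ATF4 is translated more. ATF4 raises transcription of genes for amino acid synthesis and transport and of DDIT3, and ATF4 and CHOP together act on genes of recovery, feedback and cell death. The arrays measure RNA, and neither ATF4 protein nor phosphorylated eIF2alpha was measured here.

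Median raw intensity ran from 102 to 127 on the MFH arrays and from 103 to 114 on the untreated arrays, and between 42.8% and 45.2% of probes lay above background on each of the 6 arrays. HSPA6, a heat-inducible HSP70 chaperone picked after its values were seen as a check of the treatment label, rose by 5.80 ± 0.14 (SE, log2) at ILMN_1806165, with a limma adjusted p of 4.1e-12 (n = 3 each). Of the mesenchymal markers VIM, CDH2, ZEB1 and FN1, 4 of 4 were above background on all arrays. Their summed raw intensity was 18960 to 23240 on the MFH arrays and 16800 to 21260 on the untreated arrays. Among 5 epithelial markers, EPCAM, KRT7, KRT8 and KRT18 were above background on every array and CDH1 on none. The 5 summed to 3607 to 4728 on the MFH arrays and 3881 to 4718 on the untreated arrays, and KRT8 was lower after MFH by a log2 change of -0.34 (limma adjusted p = 0.038), a call kept in 5 of 15 alternatives. KRT7 changed by 0.30 (limma adjusted p = 0.096), KRT18 by 0.21 and EPCAM by 0.03, none of them called. Of 4 leukocyte markers with a probe, 0 were above background on all arrays and PTPRC and CD3E were above it on none, with sums of 419.5 to 570.5 after MFH and 395.5 to 452 untreated. CD14, above background on 3 of 3 MFH arrays and 1 of 3 untreated arrays, changed by 0.55 (log2; limma adjusted p = 0.055). Of the 3 endothelial markers CDH5 alone was above background on every array, with sums of 422.7 to 606.6 after MFH and 397.6 to 491.5 untreated. The part of these marker levels in the results was not tested. In RNA from whole cultures, more cells expressing a gene and more RNA per cell cannot be told apart.

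MFH was followed by small rises in 3 of the 8 genes: GDF15 (1.5-fold), SESN2 (1.44-fold) and PPP1R15A (1.39-fold) passed a limma adjusted p of 0.05, adjusted over all 23615 probes tested. The other 5 did not pass. Without untreated replicate 3 the only member called was PPP1R15A. None of the 8 was called lower, and 6, the 3 called among them, had an unadjusted limma p under 0.05, as did 24.4% of all tested probes. Over all tested probes 5.69% were called higher and 6.59% lower. All 8 members had a mean above that of untreated cells, where 48% of all tested probes did, and their median log2 change was 0.37 against -0.01 over all tested probes. The members were chosen with earlier results of these data known, so these counts describe the 8 probes and are not a test of the pathway. All 8 probes passed the filter on dim probes and were above background on all 6 arrays.

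**Figure D1:**
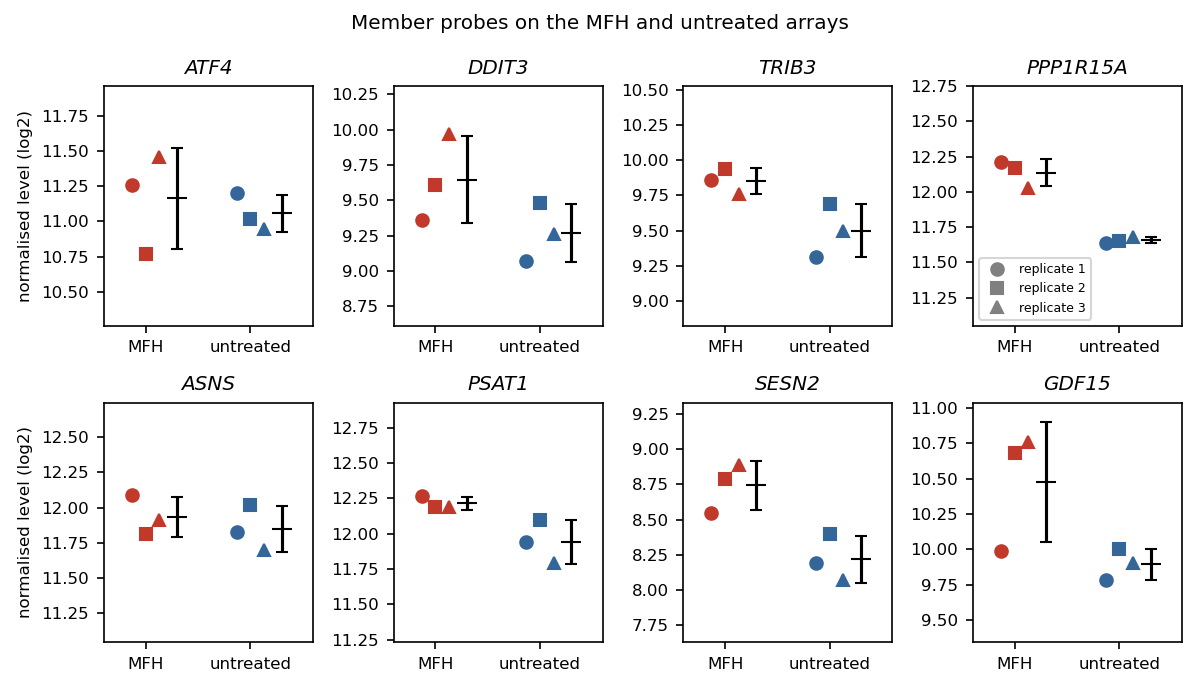
Normalised log2 level of each of the 8 member probes (y axis, the same span in each panel) on the 3 MFH and 3 untreated arrays, with symbols for replicate numbers and a black mark for mean ± SD. The MFH arrays lie wholly above the untreated ones for TRIB3, PPP1R15A, PSAT1 and SESN2, and 1 GDF15 value of MFH replicate 1 lies level with untreated cells.

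Neither transcription factor at the head of the pathway passed the test. ATF4 (ILMN_2358457), the basic leucine zipper factor that gives this arm its name, had normalised log2 levels of 11.26, 10.77 and 11.46 on the MFH arrays, against 11.20, 11.02 and 10.95 on the untreated arrays. The MFH arrays held both the lowest and the highest value, so the groups overlapped. The change was 0.11 ± 0.15 (SE, log2), with a 95% interval of -0.21 to 0.42 and a limma adjusted p of 0.74. Without MFH replicate 3 its sign turned, to -0.04. Both other ATF4 probes on the array also missed the threshold: ILMN_1672128 changed by -0.09 ± 0.12 (SE, log2; limma adjusted p = 0.71) and ILMN_1783394 by 0.26 ± 0.11 (SE, log2; limma adjusted p = 0.14). The upper ends of the 3 intervals were 0.42, 0.16 and 0.49 on this log2 scale, which understates fold changes. The probes differed in brightness, with mean untreated raw intensity of 2109, 12640 and 149.4 in the same order, so ILMN_1672128 was the brightest and ILMN_1783394 was dim.

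DDIT3 (ILMN_1676984) encodes CHOP, a partner of ATF4 that is known for promoting cell death under prolonged stress. Its log2 levels were 9.36, 9.61 and 9.97 on the MFH arrays and 9.07, 9.48 and 9.26 on the untreated arrays. MFH replicate 1 lay below untreated replicate 2, and MFH replicates 2 and 3 lay above all untreated values. The change of 0.38 ± 0.15 (SE, log2), 1.3-fold, had an unadjusted limma p of 0.022 and an adjusted p of 0.12. DDIT3 passed in only 1 of 15 alternative analyses, the one without MFH replicate 1, where its log2 change was 0.52 (limma adjusted p = 0.039).

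Feedback genes limit the response once it has started. PPP1R15A (ILMN_1659936), also called GADD34, encodes the stress-induced subunit that directs a phosphatase to eIF2alpha and so restores protein synthesis. Its raw intensity was 5900, 4052 and 4289 on the MFH arrays, against 3443, 2657 and 3347 on the untreated arrays. On the normalised log2 scale these were 12.21, 12.17 and 12.03 after MFH and 11.64, 11.65 and 11.68 untreated. The groups were separate on both scales, and the untreated arrays were close together, with an SD of 0.0229 on the log2 scale. PPP1R15A rose by 0.48 ± 0.099 (SE, log2; limma adjusted p = 0.0053). The call held without any 1 of the 6 arrays and failed only with median scaling, where the change was 0.54 (limma adjusted p = 0.064).

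TRIB3 (ILMN_1787815) is a pseudokinase induced by ATF4 and CHOP that in turn inhibits ATF4. It had log2 levels of 9.86, 9.94 and 9.76 after MFH and 9.31, 9.69 and 9.50 in untreated cells. Every MFH value lay above every untreated one, the nearest being MFH replicate 3 and untreated replicate 2. The change of 0.35 ± 0.11 (SE, log2), 1.28-fold, missed the threshold with a limma adjusted p of 0.059. It passed in 5 of 15 alternatives, among them cyclic loess, no background correction and the authors' deposited normalised values.

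Groups that did not overlap were found for 4 members, TRIB3, PPP1R15A, PSAT1 and SESN2, all higher after MFH. Over all tested probes, 12.8% had all MFH arrays above all untreated arrays and 15.8% had them all below.

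The genes of amino acid synthesis did not pass the test. ASNS (ILMN_1796417) encodes asparagine synthetase, a much used reporter of ATF4 activity. Its log2 levels were 12.09, 11.81 and 11.91 on the MFH arrays and 11.83, 12.02 and 11.70 on the untreated arrays, which overlapped. The change was 0.09 ± 0.11 (SE, log2), with an interval of -0.16 to 0.33 (limma adjusted p = 0.72). The second ASNS probe, ILMN_2398107, read 11.22, 11.30 and 11.08 after MFH and 11.00, 10.55 and 11.05 untreated. Its groups were separate, at 0.34 ± 0.13 (SE, log2; limma adjusted p = 0.12), and neither probe was called. Untreated replicate 2 was the lowest array on this probe, and without it ILMN_2398107 changed by 0.18 and ILMN_1796417 by 0.17.

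PSAT1 (ILMN_1692938), phosphoserine aminotransferase of the serine synthesis route, had log2 levels of 12.27, 12.19 and 12.19 after MFH and 11.94, 12.10 and 11.79 in untreated cells. The MFH arrays were tightly grouped just above the highest untreated one. The change of 0.27 ± 0.11 (SE, log2), 1.21-fold, had a limma adjusted p of 0.12 and passed in 0 of 15 alternatives. A second PSAT1 probe, ILMN_1712563, was above background on 0 of 3 MFH arrays and 1 of 3 untreated arrays and gives no usable change.

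The effectors SESN2 and GDF15 were both called. In the reported analysis their changes were above that of PPP1R15A, but the order was not fixed: without MFH replicate 3 PPP1R15A had 0.53, SESN2 0.45 and GDF15 0.44, and PPP1R15A also exceeded SESN2 without untreated replicate 3 (0.49 against 0.45) and with median scaling (0.54 against 0.50). SESN2 (ILMN_1751598) encodes a sestrin, a leucine sensor that restrains mTORC1. Its raw intensity was 489.4, 405.3 and 510.0 on the MFH arrays, against 354.1, 316.9 and 312.2 on the untreated arrays, and the normalised log2 levels were 8.55, 8.79 and 8.89 against 8.19, 8.40 and 8.07. No MFH value fell within the untreated range on either scale. SESN2 rose by 0.52 ± 0.12 (SE, log2; limma adjusted p = 0.011), and the call was lost only without untreated replicate 3 (0.45, limma adjusted p = 0.058).

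GDF15 (ILMN_2188862) encodes a secreted stress cytokine of the TGF-beta superfamily. Its raw intensity was 1296, 1438 and 1757 on the MFH arrays and 990.2, 881.6 and 1022 on the untreated arrays. The normalised log2 levels were 9.99, 10.68 and 10.76 after MFH and 9.78, 10 and 9.90 untreated. MFH replicate 1 thus lay within the untreated range after normalisation, while replicates 2 and 3 were well above it. GDF15 rose by 0.58 ± 0.16 (SE, log2; limma adjusted p = 0.031). The call was lost without MFH replicate 2 or 3, without any 1 untreated array and with an offset of 16 (limma adjusted p up to 0.13), and without MFH replicate 1 the change was 0.82 (limma adjusted p = 0.00057).

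**Figure D2:**
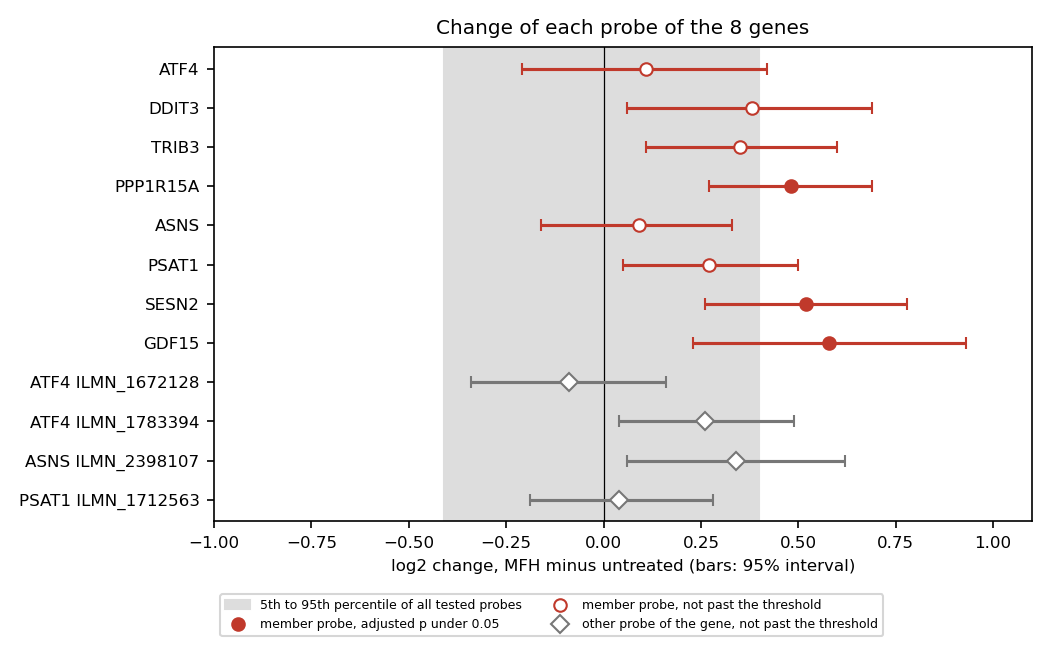
Log2 change, MFH minus untreated, with its 95% interval (x axis) for the 8 member probes (circles) and 4 further probes of the same genes (diamonds), filled where the limma adjusted p was under 0.05. The grey band spans the 5th to 95th percentile of all tested probes, -0.41 to 0.40, and PPP1R15A, SESN2 and GDF15 lie beyond it.

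Set in order of change, the members ran from GDF15 (0.58) through SESN2 (0.52), PPP1R15A (0.48), DDIT3 (0.38), TRIB3 (0.35), PSAT1 (0.27) and ATF4 (0.11) to ASNS (0.09). The 95% intervals of neighbours in this order overlapped throughout, and differences between members were not tested. The 3 called members stood at the 96.3rd percentile (PPP1R15A), the 96.9th (SESN2) and the 97.5th (GDF15) of all changes.

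The MFH arrays did not rank the members alike. MFH replicate 1 gave the smallest change from the untreated mean for DDIT3 (0.09), SESN2 (0.32) and GDF15 (0.10), where MFH replicate 3 gave 0.70, 0.67 and 0.86. ATF4 was also higher on replicate 3 (0.40) than on replicate 1 (0.20), and on replicate 2 it lay below the untreated mean (-0.29). The other 4 members were lower on replicate 3 than on replicate 1. PPP1R15A had 0.55 on replicate 1 and 0.37 on replicate 3, TRIB3 0.36 and 0.26, PSAT1 0.33 and 0.25, and ASNS 0.24 and 0.06. Over the 8 members the median change was 0.28, 0.39 and 0.38 on MFH replicates 1, 2 and 3. These are single values per array, with no test.

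Where the start of transcription is annotated, RefSeq (GRCh38.p14) gave sequence for all 8 genes, and the 250 bases before each start were searched on both strands for 2 motifs, TGATGNAA, the core of the C/EBP-ATF response element that ATF4 binds, and TGACGTCA, the cyclic AMP response element, which reads the same on both strands. Among all 35116 promoters in the table TGATGNAA was found in 3.14% and TGACGTCA in 1.65%, counted over the same 250 bases. Counted by gene, over 27305 genes, the shares with a match at any start were 3.89% and 2.03%. PPP1R15A held TGACGTCA from base -58 to -51 and the first of the 2 ASNS starts held TGATGAAA from -68 to -61. The other 6 genes had no match to these letters in this window. A match is a description of the sequence and not a binding site. The 150 bases up to the start are printed for both genes with a match and for SESN2 and GDF15, the other genes called, with motif matches in capitals.
PPP1R15A, chr19:48872271-48872420, plus strand: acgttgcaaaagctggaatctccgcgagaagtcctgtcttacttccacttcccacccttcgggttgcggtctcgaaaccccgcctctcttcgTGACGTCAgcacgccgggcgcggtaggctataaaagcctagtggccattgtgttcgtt
ASNS, chr7:97872409-97872558, minus strand: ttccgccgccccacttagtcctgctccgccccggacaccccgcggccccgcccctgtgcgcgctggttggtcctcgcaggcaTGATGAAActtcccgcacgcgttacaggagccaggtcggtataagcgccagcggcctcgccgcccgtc
SESN2, chr1:28259368-28259517, plus strand: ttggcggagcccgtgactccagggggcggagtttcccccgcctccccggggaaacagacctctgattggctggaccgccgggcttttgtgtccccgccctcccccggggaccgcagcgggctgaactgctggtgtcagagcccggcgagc
GDF15, chr19:18386008-18386157, plus strand: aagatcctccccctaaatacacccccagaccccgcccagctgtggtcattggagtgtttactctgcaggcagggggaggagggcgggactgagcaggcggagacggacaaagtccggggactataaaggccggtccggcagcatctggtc

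Each motif was matched in a different member and in no other, which is too few to relate matches to calls. Of the genes with a match, PPP1R15A was called and ASNS was not, and SESN2 and GDF15 were called without one.

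The rest of the pathway was read through 73 further genes in 7 lists, each gene by its brightest probe. Of these 70 had a probe, 68 passed the filter, 11 were called higher and 2 lower. The 16.2% called higher stands beside 5.69% of all tested probes, and the 2 of 68 called lower beside 6.59%. The median log2 change was 0.07 against -0.01. The lists were written with earlier results of these data known, and only brightest probes were read. These counts therefore describe the listed genes and are not a test of the pathway. With median scaling 6 were called higher and 0 lower, the calls of EIF2AK3, ATF5, CEBPG, XPOT, CHAC1, SQSTM1 and MAP1LC3B being lost (limma adjusted p of 0.058 to 0.23). With an offset of 16 those of ATF5, CEBPG, SLC7A5, XPOT and SQSTM1 were lost (limma adjusted p of 0.057 to 0.11), so the count lower was also 0. The count lower was 0 as well without MFH replicate 1 and without untreated replicate 2 or 3, and 1 without MFH replicate 2 or untreated replicate 1.

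Upstream of ATF4, 1 of 6 genes was called, where 12.3% of all tested probes were called in either direction. EIF2AK3, which encodes PERK, the eIF2alpha kinase of the endoplasmic reticulum, had log2 levels of 8.19, 7.99 and 7.78 after MFH against 7.47, 7.63 and 7.44 untreated. Every MFH array lay above every untreated one, as for 12.8% of all tested probes. EIF2AK3 rose by 0.48 ± 0.12 (SE, log2; limma adjusted p = 0.016). That call was lost without MFH replicate 1 or 2, without untreated replicate 1 or 3 and with median scaling (limma adjusted p = 0.11). EIF2AK1, the kinase HRI, changed by -0.19 (limma adjusted p = 0.28) and EIF2AK2, the kinase PKR, by 0.24 (limma adjusted p = 0.16).

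Among 6 partners of ATF4 and CHOP, 1 was called higher and 1 lower, where 5.69% of all tested probes were called higher and 6.59% lower. CEBPG, a C/EBP factor that dimerises with ATF4, rose by 0.47 ± 0.14 (SE, log2; limma adjusted p = 0.046), with 10.73 on MFH replicate 1 and 10.24 and 10.26 on the others, against 9.69 to 10.13 untreated. The call was lost without MFH replicate 1 and without untreated replicate 1 or 3 (limma adjusted p of 0.093 to 0.19). ATF5, a close relative of ATF4 that is also translated under stress, fell by 0.44 ± 0.13 (SE, log2; limma adjusted p = 0.039), a call lost without MFH replicate 1 or 2 and without any 1 untreated array. ATF3, a repressor induced by ATF4 and also an immediate early gene, read 10.01, 9.21 and 8.94 after MFH and 9.06, 9.24 and 8.87 untreated, and its change of 0.33 (limma adjusted p = 0.37) rested on MFH replicate 1, without which it was 0.01. CEBPB changed by -0.28 (limma adjusted p = 0.13).

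The lists of amino acid supply held 3 calls, all higher, where 5.69% of all tested probes were called higher. MTHFD2, a mitochondrial enzyme of one-carbon metabolism, was the 1 of 10 synthesis genes called, at 11.34, 11.75 and 11.47 after MFH against 11.03, 10.99 and 10.79 untreated (log2). It rose by 0.58 ± 0.12 (SE, log2; limma adjusted p = 0.0054). PHGDH, the first enzyme of serine synthesis, changed by -0.01 (limma adjusted p = 0.97), with a sign that varied among alternatives, and PSPH, the last, by 0.29 (limma adjusted p = 0.11).

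Of 8 transporters tested, SLC7A5 and SLC3A2 were called higher, where 5.69% of all tested probes were. SLC7A5 and SLC3A2 encode the light and heavy chains of one exchanger of large neutral amino acids. SLC3A2 rose by 0.55 ± 0.12 (SE, log2; limma adjusted p = 0.0074) and SLC7A5 by 0.44 ± 0.11 (SE, log2; limma adjusted p = 0.017). A second SLC3A2 probe, ILMN_1679041, gave 0.99 (limma adjusted p = 0.0010). Untreated replicate 2 stood low on this probe, at 6.83 beside 7.56 and 7.57 (log2), and its change ran from 0.74 to 1.18 among the alternatives. SLC7A11, the cystine transporter, changed by -0.06 (limma adjusted p = 0.85) and the cationic transporter SLC7A1 also by -0.06 (limma adjusted p = 0.81). The SLC7A11 probe was dim, with a mean raw intensity of 147.6 on the untreated arrays against background limits of 107 to 118 there. The SLC7A5 call was lost without MFH replicate 2 and without untreated replicate 1 or 3.

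Of 12 genes for tRNA charging and export, 1 passed and was higher, where 5.69% of all tested probes were called higher. XPOT, which exports tRNA from the nucleus, rose by 0.78 ± 0.20 (SE, log2; limma adjusted p = 0.021), but untreated replicate 2 stood low at 7.50 beside 8.54 and 8.45, and without it the change was 0.45, still called. The XPOT call was lost without MFH replicate 1 or 2, and also with trend and robust eBayes (limma adjusted p = 0.096), median scaling (0.15) and an offset of 16 (0.076). The 11 tRNA synthetases tested had changes between 0.02 and 0.23, of which 0 passed the adjusted threshold in limma. At an unadjusted limma p under 0.05 there were 2 of the 12 genes in this list, XPOT among them, where 24.4% of all tested probes were. AARS1 changed by 0.11 (limma adjusted p = 0.66) and EPRS1 by 0.12 (limma adjusted p = 0.64).

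Of 15 stress effectors, 3 passed, all higher, where 5.69% of all tested probes were called higher. The list as a whole was not shifted upward: 7 of the 15 changes were above 0, and the median log2 change was -0.02. Some of the 15 probes were dim, which limits what can be seen of their changes. FGF21 was above background on 0 of 3 arrays in each group, and BCL2L11 on 2 of 3 in each. INHBE was above it on 1 of 3 MFH arrays and 3 of 3 untreated arrays. STC2, a secreted glycoprotein, read 9.89, 9.53 and 9.31 after MFH against 8.65, 8.57 and 8.63 untreated (log2), and rose by 0.96 ± 0.13 (SE, log2; limma adjusted p = 0.00025). PMAIP1, which encodes the BH3-only death protein NOXA, read 10.87, 10.54 and 10.86 against 10.04, 9.88 and 9.92, and rose by 0.81 ± 0.11 (SE, log2; limma adjusted p = 0.00028). The groups were separate for both genes, where 12.8% of all tested probes had all MFH arrays above all untreated arrays. The second PMAIP1 probe, ILMN_1689525, gave 0.98 (limma adjusted p = 1.2e-05). CHAC1, a glutathione-degrading enzyme, rose by 0.49 ± 0.11 (SE, log2; limma adjusted p = 0.0086), with changes of 0.36 to 0.73 among the alternatives, and was not called with median scaling (limma adjusted p = 0.058). Its probe was near background in untreated cells, with raw intensity of 131.5, 113.9 and 118.5 against background limits of 118, 107 and 117. DDIT4, an inhibitor of mTORC1, and VLDLR, a lipoprotein receptor, each changed by -0.17 (limma adjusted p = 0.49 and 0.34).

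Of 11 autophagy genes, 2 were called higher and 1 lower, where 5.69% of all tested probes were called higher and 6.59% lower. MAP1LC3B, the LC3 protein of the autophagosome membrane, rose by 0.67 ± 0.13 (SE, log2; limma adjusted p = 0.0032) and ATG5, which acts in LC3 lipidation, by 0.58 ± 0.11 (SE, log2; limma adjusted p = 0.0023). The MAP1LC3B call was lost with median scaling (limma adjusted p = 0.066). SQSTM1, the cargo receptor p62, fell by 0.51 ± 0.12 (SE, log2; limma adjusted p = 0.015), a call lost without MFH replicate 1 and without untreated replicate 2 or 3. ATG3 changed by 0.10 (limma adjusted p = 0.64) and ATG7 by -0.14 (limma adjusted p = 0.44). Probes disagreed for GABARAPL2, singled out after its values were seen. Its brightest probe changed by 0.03 (limma adjusted p = 0.9), and ILMN_2046315 gave 0.79 (limma adjusted p = 0.0053). The call of ILMN_2046315 was lost with median scaling (limma adjusted p = 0.073). Untreated replicates 1, 2 and 3 read 9.24, 8.54 and 8.51 on that probe (log2).

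**Figure D3:**
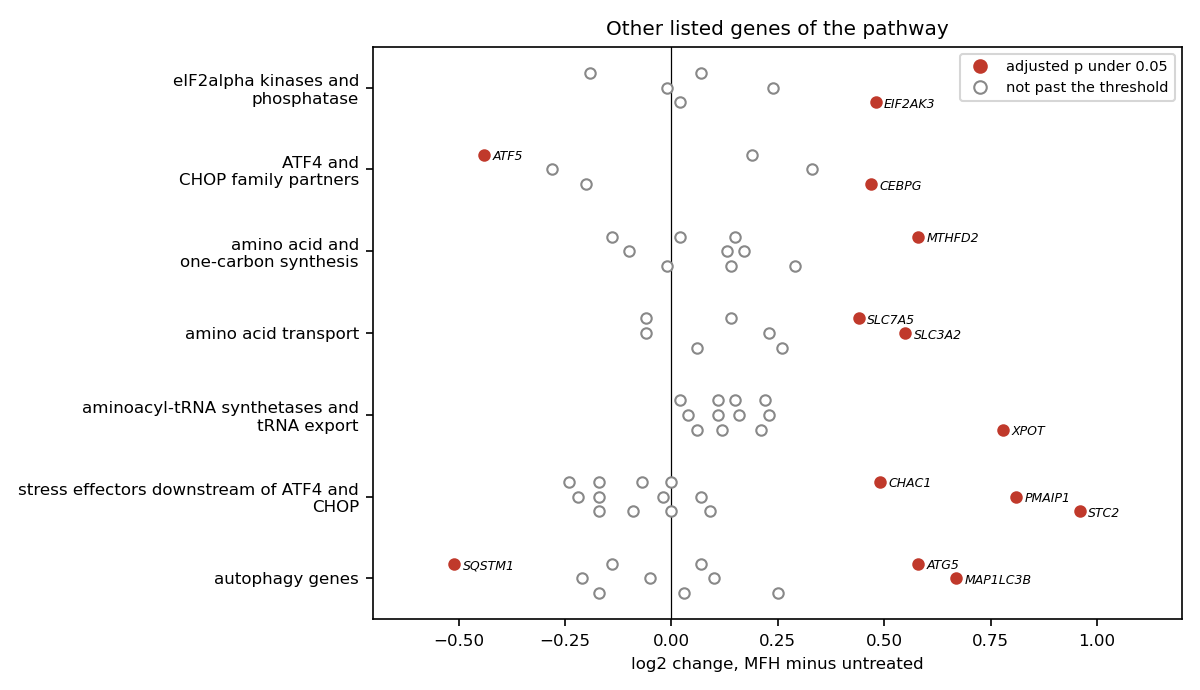
Log2 change, MFH minus untreated (x axis), of the 68 tested genes in the 7 pathway lists (y axis), 1 point per gene, filled and named where the limma adjusted p was under 0.05. The 11 genes called higher run from 0.44 (SLC7A5) to 0.96 (STC2), and ATF5 and SQSTM1 are the 2 called lower.

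The probes whose pattern over the 6 arrays was most like that of DDIT3, by Pearson correlation among 17181 probes of a single named gene, were those of MROH6 (0.99), RHBDD2 (0.988), LRP1 (0.984), ANXA8 (0.983) and STAM2 (0.979). In the same ranking 30 probes exceeded 0.95, and all share the 6 arrays and their normalisation. ANXA8 was above background on 2 of 3 MFH arrays and 0 of 3 untreated arrays. MROH6 and LRP1 were dim, with mean untreated raw intensity of 121.2 and 127.6 against untreated background limits of 107 to 118. STAM2 rose by 0.53 (log2; limma adjusted p = 0.027), a call lost without MFH replicate 2 or 3 and without untreated replicate 1 or 3, with median scaling and with an offset of 16, and the other 4 were not called.

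**Figure D4:**
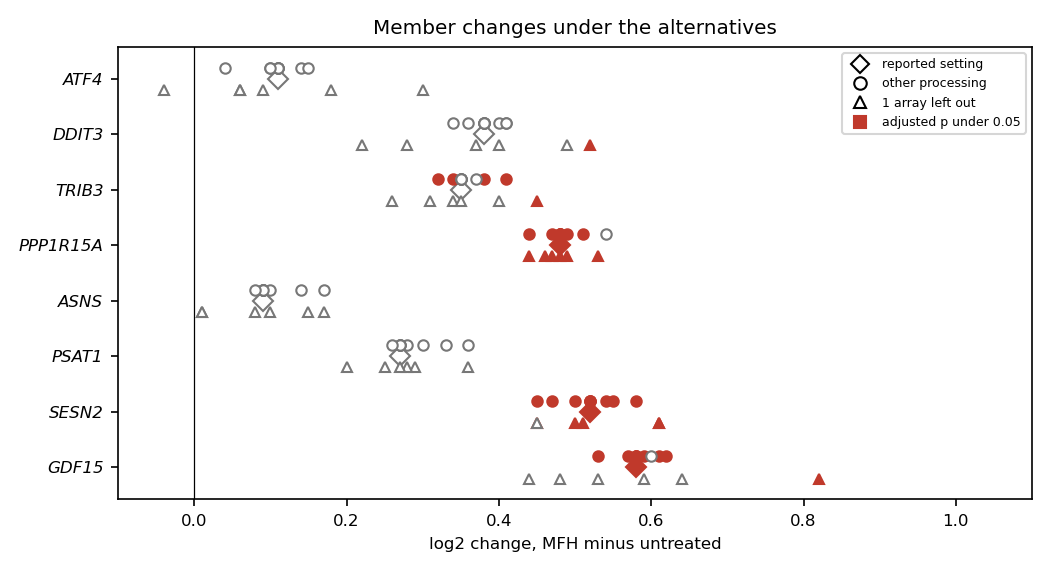
Log2 change of each member, MFH minus untreated (x axis), in the reported analysis (diamonds), with other processing (circles) and with 1 array left out (triangles), filled red where the limma adjusted p was under 0.05. PPP1R15A and SESN2 passed in 14 of 15 alternatives each, GDF15 in 9, TRIB3 in 5, DDIT3 in 1, and ATF4, ASNS and PSAT1 in 0.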

How the data were processed

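The authors deposited a table of probe intensity values that is not normalised, per the file headers, exported with BeadStudio per the submitters' processing notes, with 3 MFH and 3 untreated columns. They also deposited log2 values for the same arrays. Each column of these keeps the probe ranks of its raw array, with a median of 6.73 on every array, and was used as an alternative. The sources used here do not state how these were normalised. There are no detection p-values, bead numbers or control probes, and depth does not apply: the number of arrays limits precision. Columns were matched by sample title.

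Intensities were background corrected (normexp, offset 50), quantile normalised and put on the log2 scale in limma 3.58.1 under R 4.3.3. The offset and remaining background draw fold changes towards 1. Probes with a mean above the median were tested with lmFit and eBayes on group alone, with Benjamini-Hochberg adjustment over all 23615. A probe was above background past the mode of its array plus 2 SD of the values below it. The script was run on simulated data as a check of the code only, which lends no support to the calls reported here. Genes were named from the platform annotation of 30113 single-gene probes, with symbols updated through RefSeq. Genes named were the members, every list gene called (up to 5 a list), the first 2 not called, and the 5 probes most like DDIT3. The members and lists were chosen with earlier results of these data known. Same-numbered arrays were checked for pairing by correlating their deviations.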

Additional observations from a re-analysis of the deposited data

How the results depend on the processing

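Alternatives in normalisation, background correction, offset, filter, variance model, array weights, replicate block, source of values and left-out arrays were tried. Median scaling gave 1030 probes called in all, 6 listed genes higher and 0 lower. Offset 16 gave 0 listed genes lower. The causes were not tested. Leaving out each array gave 1 to 4 members called higher (1 without untreated replicate 3) and 0 lower, 8 to 13 listed genes higher and 0 to 2 lower, and 1990 to 2588 probes in all. The replicate block gave 3 members and 10 listed genes called higher and 2868 probes in all, and of the genes named it ended the call of CEBPG (limma adjusted p = 0.061). Same-numbered arrays correlated at 0.0039, 0.060 and -0.036 and differently numbered ones at -0.12 to 0.10, so the numbers were not treated as pairs. Signs turned, none past the threshold, for PHGDH with cyclic loess (0.05), median scaling (0.11) and array weights (0.03), for SLC7A1 (0.00) and ILMN_1672128 of ATF4 (0.01) with median scaling, and when 1 array was left out, which gave -0.04 to 0.30 for ATF4, -0.08 to 0.09 for PHGDH, -0.19 to 0.05 for SLC7A11, -0.11 to 0.02 for SLC7A1, -0.02 to 0.18 for AARS1 and -0.01 to 0.09 for ILMN_1712563 of PSAT1. MTHFD2, SLC3A2, STC2, PMAIP1 and ATG5 passed in all 15 alternatives. Dim probes keep a remnant of background, which limits what can be seen of their changes.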
